A study of Homo sapiens with 3 samples.

Results

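Exon clusters outside RefSeq mRNA exons, the set that should hold long noncoding RNAs, were 574 of 11577 DICER-bound clusters in replicate 1, 869 of 18065 in replicate 2 and 203 of 5099 in replicate 3. They were chosen from the annotation in the deposited lists: a cluster (a run of overlapping reads) had to lie in an annotated exon, off the mitochondrial genome, and in no exon of a RefSeq mRNA. Clusters annotated as small noncoding RNAs or predicted RNA structures, or as repeats of rRNA, tRNA, snRNA, scRNA or 7SL, were left out, as were vault, Y, 7SL, snoRNA, scaRNA and snRNA genes, RMRP, RPPH1 and TERC. A series-wide list, whose clusters have reads from at least 2 of the 3 replicates per the file attributes, held 439 such clusters of 8469. No measured value entered the choice.

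The cells were Flp-In HEK293 T-Rex, a derivative of the human embryonic kidney line HEK293, which carried a FLAG-tagged DICER transgene and were processed by the RNase T1 protocol. All 3 samples were replicates of this 1 group, so there was no control library or second condition, and the labels do not say whether they came from separate cultures. The p-values below therefore concern only these samples, whose differences may be technical. With 3 replicates, the sign-flip test used below reaches its smallest p-value whenever all 3 differences share a sign, however widely they spread. In PAR-CLIP, a photoreactive uridine analogue in the RNA is crosslinked to the bound protein by ultraviolet light, and crosslinked positions are read as T-to-C conversions. The lists held 1306125, 1060791 and 595487 conversions in replicates 1, 2 and 3. RNA abundance was not measured here, so a site with many conversions may be well bound or merely abundant, and these cannot be told apart.

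DICER, an RNase III endonuclease, releases miRNA duplexes from their hairpin precursors. Long noncoding RNAs are transcripts with little or no coding potential. Some, such as XIST, MALAT1 and NEAT1, work in the nucleus, whereas NORAD is mainly cytoplasmic, and others serve as hosts from which miRNAs or snoRNAs are cut. Some hosts are spliced and then decayed, so that the small RNA from an intron or exon is the stable product.

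The label of a noncoding set held for a minority of its members. A coding-transcript region (untranslated or coding sequence of an Ensembl transcript that RefSeq mRNAs do not share) was annotated for 362 of the 574 clusters in replicate 1, 550 of 869 in replicate 2 and 150 of 203 in replicate 3. That was 66.7% ± 6.19 of clusters and 68.8% ± 4.86 of the set's conversions (SD, n = 3). The 3′ untranslated region alone accounted for 35.5% ± 2.95 of clusters, 5′ untranslated regions for 9.31% ± 0.689, coding sequence for 8.73% ± 0.592 and more than 1 of these regions for 13.2% ± 4.43. Clusters with a coding region that also lay within an intron of a RefSeq mRNA made up 23.67% ± 6.08 of the set. Purely noncoding exons supplied the remaining 33.3% ± 6.19, namely 212, 319 and 53 clusters. Clusters in which at least 1 gene symbol was typed as long noncoding RNA in the RefSeq table (assembly GRCh38.p14) and no coding region was annotated were 11.9% ± 3.39 of the set. A similar share, 11.7% ± 2.40, were noncoding clusters whose symbols had no match in that table and so had no type. Pseudogenes were 2.44% ± 1.69, and transcripts known only by an assembled-transcript identifier 3.95% ± 1.34. Noncoding exons of genes typed as protein coding were 3.02% ± 0.505. Coding-isoform exons and noncoding exons are therefore described separately below.

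**Figure D1:**
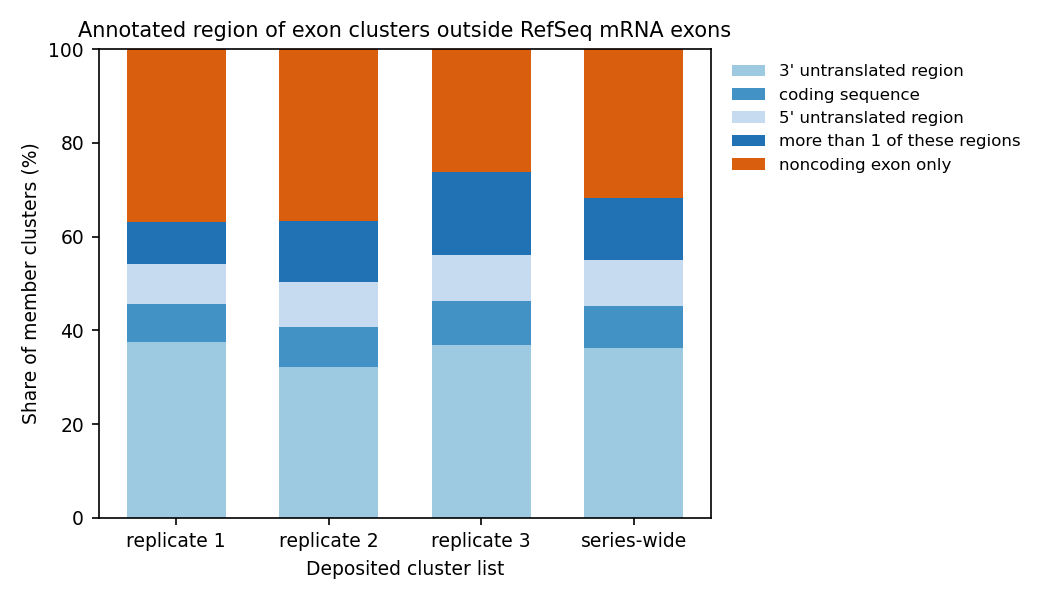
Stacked bars give the share of clusters (%, y axis) by annotated region in each of the 4 deposited lists (x axis). The noncoding segment at the top of each bar averaged 33.3% over the replicates, and the segments below it are regions of Ensembl coding transcripts.

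Few members touched a start site, but 2 noncoding genes with such a cluster in at least 2 replicates had a RefSeq start to show. SNAI3-AS1, an antisense transcript of SNAI3, had its start-site cluster in 3 replicates, and KDM4A-AS1, an antisense transcript of the histone demethylase gene KDM4A, in 2. The sequences run from 50 bases before to 50 after the RefSeq start (GRCh38.p14), on the transcribed strand, with the transcribed bases in capitals. They are shown because these members touched an annotated transcription start.
SNAI3-AS1, chr16:88663323-88663422, plus strand: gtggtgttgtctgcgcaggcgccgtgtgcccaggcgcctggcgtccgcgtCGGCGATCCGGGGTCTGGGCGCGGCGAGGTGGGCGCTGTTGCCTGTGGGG
KDM4A-AS1, chr1:43707292-43707391, minus strand: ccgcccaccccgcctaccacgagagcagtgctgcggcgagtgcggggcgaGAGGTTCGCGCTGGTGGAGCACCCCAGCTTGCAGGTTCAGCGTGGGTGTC
The first 50 transcribed bases held 9 T in SNAI3-AS1 and 11 T in KDM4A-AS1, against a median of 10 T over 27305 RefSeq starts, so these starts were not unusual in the base that PAR-CLIP can read. The clusters themselves are on hg19, and their place inside these windows was not determined. In all, 34 genes had a noncoding start-site cluster in 1 or more replicates and 7 in 2 or more. Start-site clusters were 3.33% ± 0.794 of the set, noncoding or not (SD, n = 3).

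The set was 4.58% ± 0.527 of all clusters but 0.852% ± 0.120 of all conversions, with 0.979%, 0.739% and 0.839% in replicates 1, 2 and 3 (SD, n = 3). The share of conversions minus the share of clusters was -3.98, -4.07 and -3.14 percentage points, a mean of -3.73 ± 0.512 (negative in 3 of 3, exact permutation by two-sided sign flips, p = 0.25 and adjusted p = 0.417). The most similar classes had the same imbalance: RefSeq mRNA exon clusters were 45.3% ± 10.6 of clusters and 8.21% ± 2.09 of conversions, and intron clusters 23.6% ± 8.57 and 4.05% ± 1.52 (SD, n = 3). The strongest cluster of each replicate list had 408164, 189444 and 95718 conversions, while the strongest member had 1086, 472 and 198. The set leaves such clusters out, so a negative difference was close to fixed in advance and is no finding about members. With 3 replicates this test cannot give less than 0.25, and the adjustment covers the 5 differences tested here. By distinct reads, which count reads with different ends once, the share was 2.05% ± 0.361. The median member rested on 2 distinct reads in every replicate and had 12, 5 and 21 conversions in replicates 1, 2 and 3, while over all clusters the medians were 3, 2 and 2 distinct reads and 13, 5 and 18 conversions. At least 3 distinct reads were present in 46.0%, 27.6% and 10.3% of members and in 51.8%, 27.9% and 18.8% of all clusters. The 10 strongest members of each replicate held 21.6% ± 3.11 of the set's conversions, and the single strongest held 8.50%, 6.02% and 3.96%. Over all clusters the strongest one alone had 408164 of 1306125, 189444 of 1060791 and 95718 of 595487 conversions in replicates 1, 2 and 3. By this measure members were not more concentrated than the whole series.

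Single clusters rarely recurred. Members overlapped by a cluster in both other replicates were 6.62% in replicate 1, 4.26% in replicate 2 and 18.7% in replicate 3, while among all clusters the shares were 11.8%, 7.51% and 27.9%. The counts were 38, 37 and 38 members. The noncoding members among them numbered 11, 10 and 10, or 5.19%, 3.13% and 18.9% of noncoding members, and the coding-isoform members numbered 27, 27 and 28. Members differed from RefSeq mRNA exon clusters in this share by -0.110, -1.44 and -4.37 percentage points in replicates 1, 2 and 3, a mean of -1.97 ± 2.18 (exact permutation by two-sided sign flips, p = 0.25 and adjusted p = 0.417). That difference was smaller than its spread, and it changed sign when only clusters with at least 3 distinct reads were used (0.131 ± 3.37). Members without any overlap in the other replicates were 69.7%, 77.9% and 61.1%. These shares were near those of all clusters (62.2%, 75.0% and 58.5%) and of RefSeq mRNA exon clusters (68.8%, 72.6% and 59.0%). At the level of genes, 1060 had a member in any replicate, 782 in 1, 204 in 2 and 74 in all 3 (6.98%). Of those 74 genes, 42 had a site that overlapped in all 3 replicates, 14 had only noncoding clusters and 60 had at least 1 coding-region cluster. In the series-wide list, 38 sites were overlapped in all 3 replicates, 11 of them noncoding, and these held 40.6% of the list's conversions in members. A further 68 of its 439 members overlapped no cluster of any replicate list.

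XIST, the RNA that coats the inactive X chromosome, had noncoding clusters in every replicate: 21 with 509 conversions in replicate 1, 20 with 255 in replicate 2 and 3 with 81 in replicate 3. That was 0.0255% ± 0.0128 of all conversions (SD, n = 3). Its clusters lay in exon 1 (9, 11 and 2 clusters) and exon 6 (12, 9 and 1 clusters). The strongest site was in exon 6, at hg19 chromosome X, 73044313 to 73044355, minus strand, with 261, 126 and 25 conversions. TSIX, the antisense partner of XIST, was annotated on the other strand at that site. Another site, in exon 1 (73066384 to 73066409), carried 34, 7 and 22 conversions. Of the 12 XIST clusters in the series-wide list, these 2 were found in all 3 replicates, 6 in 2 and 4 in 1. The remaining clusters were spread over both exons, with 1 to 38 conversions each in the replicates.

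NORAD, listed under its older name LINC00657 and known for binding Pumilio proteins, had 11 clusters with 252 conversions in replicate 1, 4 with 75 in replicate 2 and 1 with 4 in replicate 3. Its share of all conversions was 0.00901% ± 0.00946, so the spread exceeded the mean (SD, n = 3). All lay in its single exon. One site recurred in all 3 replicates (chromosome 20, 34634488 to 34634566, minus strand), with 92, 45 and 4 conversions on 17, 13 and 2 distinct reads. Further NORAD sites with 16 and 14 conversions (34635737 to 34635764 in the series-wide list) and with 11 and 10 were found in replicates 1 and 2 only.

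MALAT1, a nuclear speckle RNA, and NEAT1, the scaffold of paraspeckles, were covered thinly. MALAT1 had 3 clusters with 13 conversions in replicate 1, 3 with 23 in replicate 2 and none in replicate 3. The clusters of the 2 replicates did not overlap: those of replicate 1 lay within 65272075 to 65272693 on chromosome 11 and those of replicate 2 within 65267741 to 65268315. NEAT1 had 2 clusters with 3 conversions, 2 with 10 and none in replicates 1, 2 and 3. Neither gene reached the series-wide list. By the rule, 1 further cluster of each gene in replicate 1 was outside the set: a MALAT1 cluster with 17 conversions that carried a predicted structure, and a NEAT1-region cluster with 9 conversions on the MIR612 hairpin.

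**Figure D2:**
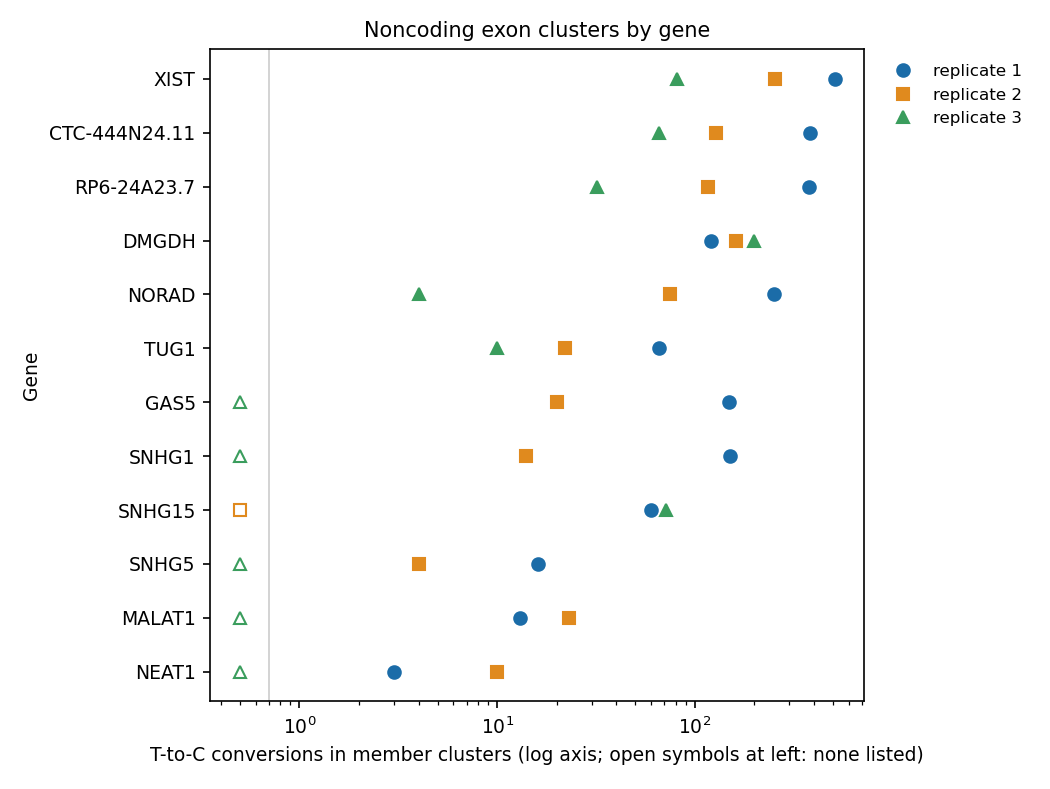
Points give the conversions (log x axis) in member clusters of 12 genes with noncoding exon clusters in replicates 1, 2 and 3, and open symbols at the left mark no listed cluster. XIST lies between 81 and 509 and DMGDH between 120 and 198, while MALAT1 and NEAT1 have no cluster in replicate 3. Values of RP6-24A23.7 include clusters with a coding-transcript region.

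DMGDH, which encodes the mitochondrial dimethylglycine dehydrogenase, carried the noncoding site with the most distinct reads of the series-wide list, 73 against 23 for the next. The cluster (chromosome 5, 78531726 to 78531779, minus strand) lay in the first exon of a noncoding Ensembl transcript. It had 120, 162 and 198 conversions on 34, 48 and 32 distinct reads in replicates 1, 2 and 3. Its boundaries were the same to within 1 nt in every list, and its length was 53 nt in each replicate. Unlike XIST and NORAD, it did not have its lowest value in replicate 3, and its share of all conversions was 0.0192% ± 0.0125 (SD, n = 3).

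Among noncoding exons with clone-based names, CTC-444N24.11 had 384, 128 and 66 conversions, of which 361, 74 and 66 came from 1 site (chromosome 19, 57818953 to 57818990, plus strand). The unnamed gene RP6-24A23.7 on the X chromosome had 377, 117 and 32 conversions in 15, 11 and 1 clusters, and no site of it recurred in all 3 replicates. Its strongest site (107964650 to 107964696, minus strand) had 127 and 29 conversions in replicates 1 and 2 and none listed in replicate 3. The only RP6-24A23.7 cluster of replicate 3 carried a 3′ untranslated annotation of a coding transcript. Over the replicates, the totals of this gene cover 22 noncoding clusters and 5 with a coding-transcript region. The nearby IRS4, an insulin receptor substrate gene, had 17 and 6 clusters in the first 2 replicates, no closer than 9041 nt. The start-site cluster of SNAI3-AS1 (chromosome 16, 88729751 to 88729808, plus strand) had 111, 29 and 17 conversions. TUG1, a long noncoding RNA that the RefSeq table types as protein coding, had 66, 22 and 10 conversions, and its recurrent site (chromosome 22, 31367217 to 31367241, plus strand) had 42, 22 and 10. The other recurrent noncoding sites were RP11-412D9.4 (13, 8 and 63), the assembled transcripts TCONS_00023278 (68, 24 and 9) and TCONS_l2_00008237 (13, 12 and 34), and TMEM267, whose site had a member cluster with 16 conversions in replicate 1 and overlapping clusters outside the set with 3 and 13 in the others. Conversions per gene were not divided by transcript length, so these values order no genes by level.

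**Figure D3:**
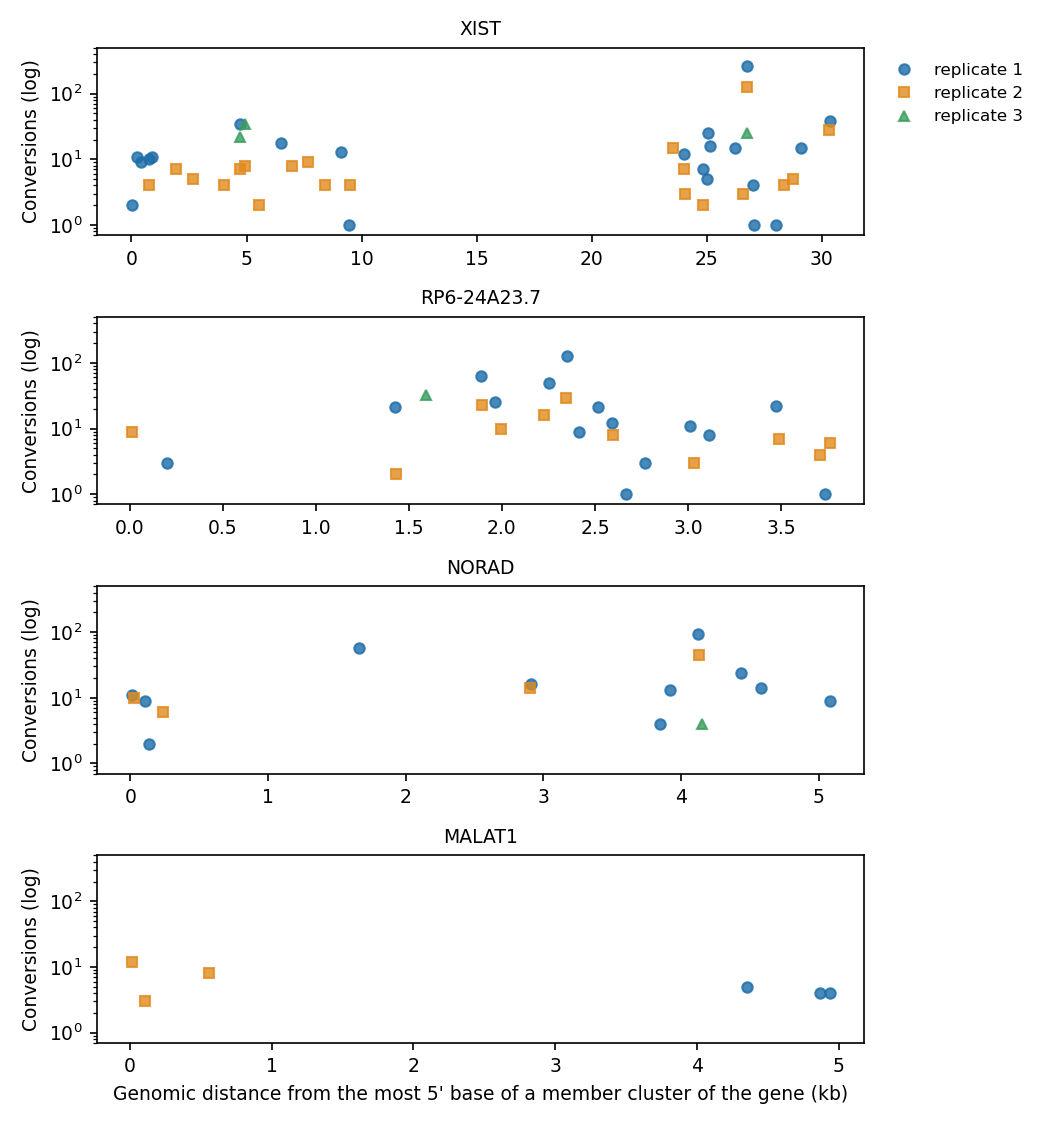
Each point is a member cluster, placed by its genomic distance (kb) from the most 5′ base of any member cluster of the gene (x axis) and by its conversions (log y axis). XIST clusters fall into 2 stretches, exons 1 and 6, while the MALAT1 clusters of replicates 1 and 2 lie apart.

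Of 22 genes listed as snoRNA hosts, 10 had a member in any replicate and 0 in all 3, while of the 1060 genes with a member 6.98% had one in all 3. SNHG29 (listed as C17orf76-AS1), a snoRNA host that the list lacks and that was named after its values were seen, had 4, 2 and 1 noncoding clusters with 85, 22 and 16 conversions. GAS5, host of several box C/D snoRNAs, had 149 and 20 conversions in replicates 1 and 2, with 91 and 20 of them at 1 site in exon 12 (chromosome 1, 173833084 to 173833126, minus strand), and none in replicate 3. SNHG1 had 151 and 14 conversions in replicates 1 and 2 and none in replicate 3. SNHG15 had 60 in replicate 1, none in replicate 2 and 71 in replicate 3, at overlapping sites of the same exon. SNHG4 had 7 and 31 in replicates 2 and 3, in a 5′ untranslated region of a coding isoform. SNHG5, which was also in the cytoplasmic list, had 16 and 4 in replicates 1 and 2. SNHG10, SNHG16, SNHG17, SNHG7 and SNHG8 had between 3 and 41 in a replicate. SNHG6 appeared in the series-wide list alone, and no member was found in any list for SNHG3, SNHG9, SNHG11, SNHG12, SNHG14, SNHG19, ZFAS1, DANCR, EPB41L4A-AS1, TAF1D or CCDC26. Of these, SNHG3, ZFAS1, EPB41L4A-AS1 and TAF1D had clusters outside the rule. These numbered 1, 1 and 3 for SNHG3 and 3, 5 and 1 for TAF1D in replicates 1, 2 and 3. Hosts with members also had clusters outside the rule, such as SNHG17 (3, 2 and 2), SNHG4 (3, 2 and 1) and GAS5 (3, 2 and 0). The count of 0 hosts in all 3 replicates therefore concerns members only.

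miRNA host genes were found mainly through their hairpins. Of 16 hosts, 2 had a member, DLEU2 and MIR210HG with 3 conversions each in replicate 2, and 0 had one in all 3 replicates. The same 16 genes carried 19, 22 and 17 hairpin clusters in replicates 1, 2 and 3, from 8 genes, all outside the set by its rule. With other kinds of cluster outside the rule, such as those of DLEU2, which had 9 in replicate 2, of them 3 hairpins, these genes carried 19, 29 and 20. MIR17HG, the host of the miR-17 to miR-92a cluster, had 6, 8 and 8 hairpin clusters and no exon cluster, and MIRLET7BHG had 5, 6 and 4 and none. Members within 2 kb of a hairpin cluster were 1, 3 and 2 in the replicates, or 0.502% ± 0.428 of the set (SD, n = 3). No member was found for MIR22HG, MIR100HG, MIR99AHG, MIR9-2HG, MIR924HG, MIR155HG, MIR137HG, MIR205HG, MIR503HG, MIR600HG, CARMN or H19.

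Of 10 nuclear long noncoding RNAs, 5 had a member in any replicate and 1, TUG1, in all 3. The list did not include XIST, described above, which had members in all 3. FIRRE had member conversions in replicate 3 (45) and a cluster outside the rule in replicate 2, and KCNQ1OT1 had 4 conversions in replicate 2. PVT1 had no member and 4 clusters outside the rule in replicate 2, and HOTAIR, MEG3, AIRN and GAS5-AS1 had no listed cluster. Of 10 listed as cytoplasmic, 4 had a member and 1, NORAD, had one in all 3. The place of the listed RNAs in the cell was not measured here. CRNDE had 40 in replicate 3 and none elsewhere, OIP5-AS1 had 34 and 3 in replicates 1 and 2, and no member was found for CYTOR, DANCR, EPB41L4A-AS1, H19, LINC-PINT or TINCR, although EPB41L4A-AS1 had a cluster outside the rule in replicate 1. The median series-wide value was 0 conversions for each list and also over the 1060 genes. Each list counts genes without a member, whereas all 1060 genes have one in some replicate, so these medians cannot be compared. Among 11 long noncoding RNAs typical of other cell types, such as HULC of liver and PCA3 of prostate, 0 had a member in any list. Other lists were sparse too, with 14 of 16 miRNA hosts and 12 of 22 snoRNA hosts without a member in any replicate. The share over all long noncoding RNA genes was not computed, so this 0 says nothing about cell type.

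No pseudogene exon named here had clusters in all 3 replicates. CBX3P2, a copy of the chromobox gene CBX3, had 40 conversions in the series-wide list and no cluster in any replicate list. TUBBP1, a beta-tubulin copy, had 16 and 9 conversions in replicates 1 and 2, and SIMC1P1 had 17 and 7. ZNF321P, also typed as a pseudogene, had 29 in replicate 3, in a coding-isoform cluster that is shared with the protein-coding ZNF816 and lies in a RefSeq intron. Reads of such copies can also belong to their parent genes, so these values are uncertain.

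Exons of Ensembl coding isoforms held 27 of the 38 recurrent sites, near their share of all series-wide members (300 of 439, 68.3%). Of the 38 sites, 12 lay within an intron of a RefSeq mRNA, all in coding isoforms. Among the 439 series-wide members, 102 (23.2%) were of this kind, and the difference was not tested. RPL37A, a protein of the large ribosomal subunit, led with 1086, 472 and 177 conversions at an Alu-annotated site. NUP58, a nucleoporin of the central channel listed as NUPL1, had 432, 244 and 25 conversions. Its recurrent site (chromosome 13, 25906961 to 25907007, plus strand) was inside a RefSeq intron, in exon 13 of an Ensembl isoform, and had 432, 187 and 25. FBXW5, an F-box substrate adaptor of ubiquitin ligases, had 169, 246 and 109 at 1 site in a RefSeq intron (chromosome 9, 139836950 to 139836991, minus strand), on 18, 25 and 8 distinct reads. Its value was highest in replicate 2, and its share of all conversions was 0.0181% ± 0.00513 (SD, n = 3).

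The other coding-isoform genes with the most conversions ranged from a few strong sites to many weak ones. BRI3BP, which binds the membrane protein BRI3, had 10, 6 and 2 clusters with 272, 54 and 33 conversions, all in a 3′ untranslated region, yet no site of it recurred in all 3 replicates. PANK3, a pantothenate kinase of coenzyme A synthesis, had 133, 63 and 58 in 3, 5 and 3 clusters. RPL7L1, a ribosomal protein-like gene, had 270, 102 and 79, with 236, 94 and 72 at 1 recurrent site (chromosome 6, 42856055 to 42856100, plus strand). TADA2A, an adaptor of histone acetyltransferase complexes, had 143, 70 and 56, and CIRBP, the cold-inducible RNA-binding protein, had 153, 37 and 21. YIPF4, a Golgi membrane protein, had 216, 54 and 7, and the zinc finger gene ZNF703 had 210, 71 and 20. In each of these genes replicate 1 had the most conversions and also the largest share of all conversions. That share was 0.0165%, 0.00509% and 0.00118% for YIPF4 and 0.0102%, 0.00594% and 0.00974% for PANK3 in replicates 1, 2 and 3. The cause was not tested. NOP14, a small-subunit processome protein, was high in replicate 3 instead, with 23, 32 and 105 at its Alu-annotated recurrent site. RPLP2, a ribosomal stalk protein, had 39, 26 and 35 at its site.

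**Figure D4:**
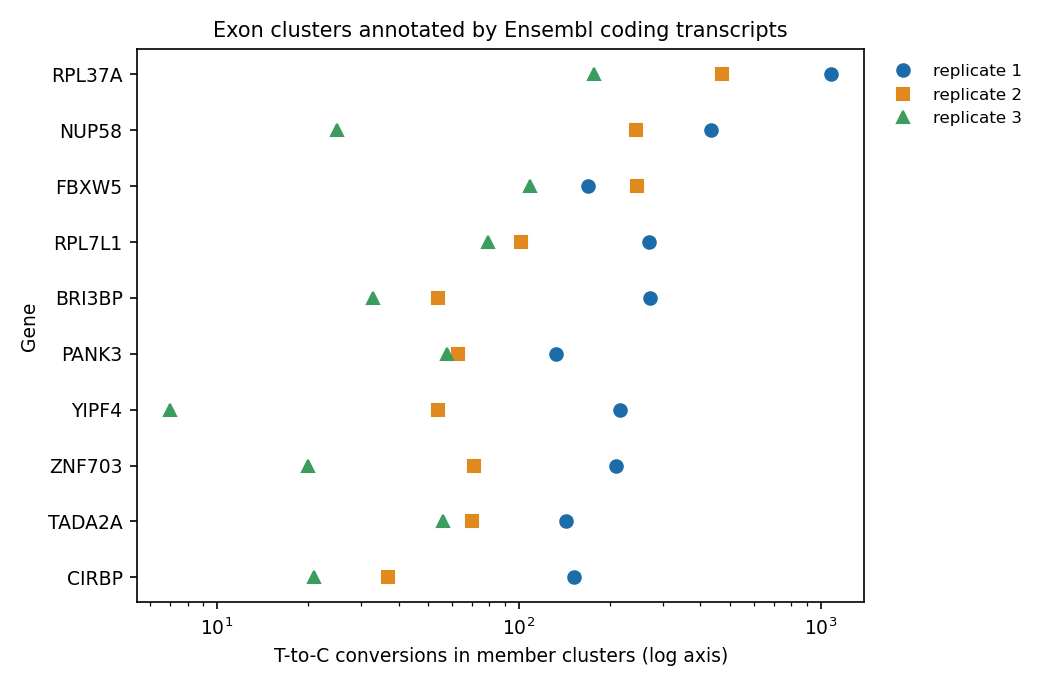
Points give the conversions (log x axis) in member clusters of the 10 genes with coding-isoform clusters named by rank, in replicates 1, 2 and 3. All 10 have clusters in every replicate, from 7 (YIPF4, replicate 3) to 1086 (RPL37A, replicate 1).

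Of the 1060 genes, 782 had a member in only 1 replicate list. Those with the most conversions and no cluster in another replicate list are named here. In replicate 1 these were KRTCAP2, a subunit of the oligosaccharyltransferase, with 74 conversions, and DICER1-AS1, the antisense neighbour of DICER1, with 50 on 9 distinct reads (chromosome 14, 95624054 to 95624083, plus strand), where DICER1 was annotated on the other strand. In replicate 2 they were AC027307.3 with 31 and TCONS_00027256 with 25. Both were also in the series-wide list, with 25 and 21, so reads at these sites came from at least 2 replicates. In replicate 3 they were ZNF549, a zinc finger gene, with 53 and AC104695.4 with 42, each on 2 distinct reads. Reads per distinct read in members were 6.64, 3.08 and 10.2 in replicates 1, 2 and 3.

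Members and RefSeq mRNA exon clusters were within 2 nt in median length, and members carried a repeat more often than these, though less often than all clusters, in each replicate. Median length was 31, 28 and 27 nt in members and 33, 29 and 27 nt in mRNA exon clusters of replicates 1, 2 and 3, a mean difference of -1 ± 1 nt (exact permutation by two-sided sign flips, p = 0.5 and adjusted p = 0.625). Median log2 conversions per cluster differed by -0.12, -0.26 and 0.14, a mean of -0.08 ± 0.21 (exact permutation by two-sided sign flips, p = 0.75 and adjusted p = 0.75). A repeat annotation was carried by 12.3% ± 2.01 of members and 4.29% ± 0.249 of mRNA exon clusters, 5.997, 9.85 and 8.23 percentage points more in the 3 replicates (mean 8.03 ± 1.93, in 3 of 3, exact permutation by two-sided sign flips, p = 0.25 and adjusted p = 0.417). Over all clusters the share was 18.0% ± 2.75. That share counts the rRNA, tRNA, snRNA, scRNA and 7SL repeats that the rule leaves out of the set. A lower share in members than in all clusters was therefore partly fixed in advance. The difference to mRNA exons was 2.65 ± 0.844 when members were limited to those typed as long noncoding RNA. Alu elements, the primate short interspersed repeats, were annotated for 7.11% ± 1.96 of coding-isoform members, 2.51% ± 1.08 of noncoding members and 1.29% ± 0.240 of mRNA exon clusters (SD, n = 3). Introns carried a repeat in 20.5% ± 2.48 of clusters. A gene on the opposite strand was annotated for 16.5% ± 0.748 of members, against 14.7% ± 0.424 of all clusters and 10.7% ± 0.116 of mRNA exon clusters, differences that were not tested.

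**Figure D5:**
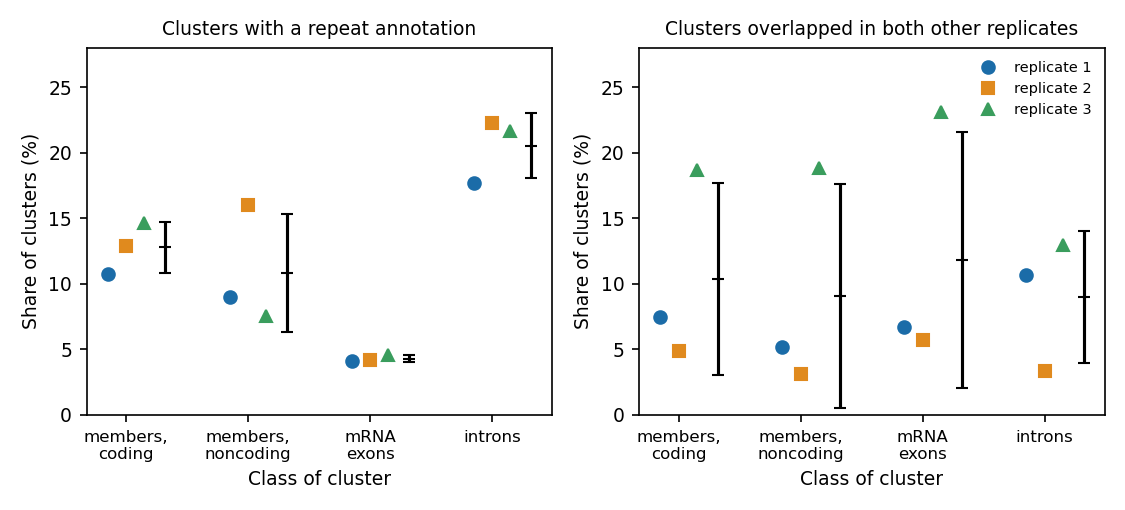
The panels give, for 4 classes of cluster (x axis), the share of clusters (%, y axis) with a repeat annotation and the share overlapped in both other replicates, with points for replicates and bars for mean ± SD (n = 3). Repeat shares of members lie between those of mRNA exons and introns in 3 of 3 replicates. Overlap shares of every class are highest in replicate 3, the shortest list, and lowest in replicate 2, the longest.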

How the data were processed

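DICER PAR-CLIP was measured in 3 replicates of 1 group, each with 2 sequencing runs per the labels. Per the submitters' processing notes, reads were handled with Bowtie2 2.1.0 and positions are on hg19; the cluster caller's version was not given in the sources used here. The authors deposited 1 cluster list per replicate and 1 series-wide list, in which the value of each cluster is a count of T-to-C conversions, not normalised to depth. Per the file attributes, the estimated false discovery rate was 5%. The authors' entropy score per cluster was not used.

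Members, lists and tests were chosen with earlier results of these data known. An overlap needed 1 nt or more in common and the same strand. mRNA exon clusters were those in an exon of a RefSeq mRNA outside the small RNA and mitochondrial classes. Differences were computed within each replicate and compared with 0 by exact permutation (two-sided sign flips) with Benjamini-Hochberg adjustment over 5 tests. Depth is given as conversions, reads and distinct reads per list; PCR copies cannot be told from separate molecules. Symbols were matched by name to the RefSeq table, and 838 of 1081 (77.5%) matched; older names were brought to current ones. Genes named were NORAD, MALAT1 and NEAT1, and the 15 with the most series-wide conversions among genes found in all 3 replicates. Up to 4 per gene list or pseudogene set were added, and 2 per replicate found in no other replicate list. Other sites were named after their values were seen. CCDC26 entered the snoRNA host list although it is not known as a host. Overlap counting was tested on simulated data. Python 3.11.15 and matplotlib 3.10.9 were used.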

Additional observations from a re-analysis of the deposited data

How the results depend on the processing

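Clusters of low coverage, filtered lists of unequal size and the lack of a control library limit these results, and with 3 replicates no sign-flip test could pass 0.05. No paired analysis was possible because all samples form 1 group. The alternatives were each replicate left out, clusters with at least 3 distinct reads or at least the median conversions, other weights, overlaps and comparison classes, members typed as long noncoding RNA only, and, chosen after seeing the data, members with or without a coding-transcript region. The difference to mRNA exon clusters in the share overlapped in both other replicates, -1.97 percentage points, became 0.131 with clusters of at least 3 distinct reads and 0.893 against intron clusters. The difference in median log2 conversions, -0.08, ranged from -0.189 to 0.0145 with 1 replicate left out, being above 0 without replicate 2, and became 0.0136 with members typed as long noncoding RNA. The named genes together held 0.277% of all conversions and 0.517% of all distinct reads. With 1 replicate left out, overlap was asked in only 1 other replicate, a looser criterion than in the main value. The overlap difference by that criterion was -3.68 without replicate 3. The length difference was -0.5 nt without replicate 1 and -1.83 nt with at least 3 distinct reads. The log2 difference was -0.23 in members without a coding-transcript region. The repeat difference, 8.03, was 2.65 in members typed as long noncoding RNA. The cause of these changes was not tested. Apart from the 4 sign changes and the distinct-read total above, 45 values of the tested differences and of the named genes' total under an alternative kept their direction. Of the 33 single-gene shares, 18 moved by more than their spread when weighted by distinct reads.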
